A study of Mus musculus with 191 samples.

Results

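The measurements described here compare the lungs of mice given 2-chloromethylpyridine hydrochloride (CMPH) with those of mice given water. The arrays were chosen by title: 4 that carry CMPH and 4 that carry WCO1, the distilled-water controls, in a series of 133 arrays of exposed mice and 58 of controls. The series, by its title, looks for transcripts that predict lung tumours in female mice, and it ran vehicle control sets beside the chemicals, some of them shared between chemicals. All animals were female B6C3F1 mice, a hybrid strain long used in rodent cancer bioassays, which were 5 weeks old when exposure began. The CMPH mice received 250 mg/kg in distilled water by gavage, meaning a tube into the stomach, once a day on 5 days per week for 13 weeks. The WCO1 mice received distilled water by the same route, volume (5 ml/kg) and schedule, and every mouse was 18 weeks old at sampling. N-methylolacrylamide (MACR, 4 arrays) was the other chemical given by gavage in distilled water, at 50 mg/kg, and it shared the WCO1 controls. The same array batch, named by a code in the titles, also held 2 sets of 4 corn oil gavage controls (CCO2 and CCO3), 1 set of 4 chow controls (FCO2) and 7 further chemicals. Each array held RNA from the right lung lobe of 1 numbered animal.

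CMPH is a pyridine ring that carries a chloromethyl group, a reactive carbon that can attach to nucleophilic sites in proteins and nucleic acids. Damage to DNA stabilises the p53 protein, which switches on genes such as Cdkn1a, whose product p21 halts the cell cycle. In lung, Cdkn1a is also under the control of glucocorticoids and other stress hormones. Glucocorticoid targets, heat shock genes and the circadian clock all follow handling, temperature and time of day, so they are read beside any chemical effect in whole lung.

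Every array value was a log-scale level, taken as log2, relative to the centre of its array. An effect is the mean over the CMPH arrays minus the mean over the WCO1 arrays, with a standard error (SE) from limma, a linear model that pools the spread of all arrays of the series. A gene was called at a Benjamini-Hochberg adjusted p under 0.05 over all 13524 genes tested. Lung identity was clear on the markers: all 17 club cell genes, 16 alveolar type 2 genes, 13 alveolar type 1 genes and 17 endothelial genes lay above the median of all values on 8 of 8 arrays.

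One CMPH array stood apart. CMPH array 4 correlated with the other CMPH arrays at 0.967 to 0.973, against up to 0.996 among those others, and the spread of its gene levels was the narrowest of the 8 (SD 1.14, against 1.25 to 1.37). It was the lowest of the 8 arrays for 6224 genes (46.0%) and the highest for 3180 (23.5%). WCO1 array 2 had the lowest mean correlation of its group (0.977), next to 0.982 for WCO1 array 4. Of the WCO1 arrays, array 4 was the lowest of the 8 for the most genes (19.1%, against 8.81% for array 2). Neither CMPH array 4 nor WCO1 array 2 had an RNA integrity number in the labels, and the other 6 arrays had 7.9 to 8.2. The 3' minus 5' difference of the Actb control probe sets, a measure of RNA breakdown, was 0.63 ± 0.06 (SD, n = 4) in CMPH and 0.58 ± 0.07 (SD, n = 4) in WCO1 (two-sided exact permutation p = 0.314, where the smallest possible p was 0.0286). For the gene lists and named genes whose values moved most with CMPH array 4, the value without it is given as well.

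No gene differed between CMPH and WCO1 at the threshold. The limma test called 0 of 13524 genes (percent called 0), and the lowest adjusted p was 0.142, for Adamtsl2. At an unadjusted p under 0.05, 801 genes were lower (5.92%) and 164 higher (1.21%) in CMPH. CMPH array 4 was the lowest of the 8 arrays for 760 of those 801 lower genes. Without it the counts were 137 lower and 75 higher, of the same 13524 genes. Counts of list members given below without that array are to be set beside these. With CMPH array 4 kept but the spread estimated from the CMPH and WCO1 arrays alone, 302 genes were lower and 376 higher. With the spread of the batch alone, 453 were lower and 194 higher, so the excess of lower genes depends on the arrays fitted. Counted instead by arrays that did not overlap, every CMPH array was below every WCO1 array for 190 genes (1.4%) and above for 214 (1.58%). With 4 against 4 arrays, full separation in either direction has a probability of 0.0286 for a gene that does not differ. The 2 shares together lie near that level, so non-overlap is given below as a value and not as evidence. The depth of the comparison is shown by the intervals: for 99.3% of genes the unadjusted 95% interval lay within a 2-fold change. Estimates beyond 2-fold were seen for 7 genes, which were Bpifa1, Bpifb1, Dbp, Hspa1a, Hspa1b, Myl7 and Scgb3a1.

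Cdkn1a, the p53 and glucocorticoid target that makes the cell-cycle inhibitor p21, was lower in CMPH without passing the threshold. Its levels on the CMPH arrays were 2.10, 1.56, 1.73 and 1.08, and on the WCO1 arrays 2.02, 2.69, 2.37 and 3.37. The groups overlapped by a single pair, since CMPH array 1 lay above WCO1 array 1, while WCO1 array 4 was the highest and CMPH array 4 the lowest. The difference was -0.99 ± 0.25 (SE; 95% interval -1.49 to -0.50), a 1.99-fold lower level, with a limma adjusted p of 0.354. A second Cdkn1a probe set differed by -0.64, in the order 0.64, 0.32, 0.36 and 0.22 on the CMPH arrays and 0.56, 1.15, 0.85 and 1.55 on the WCO1 arrays. Leaving out each array in turn gave effects from -1.19 to -0.74, and leaving out both arrays numbered 4 gave -0.56.

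**Figure D1:**
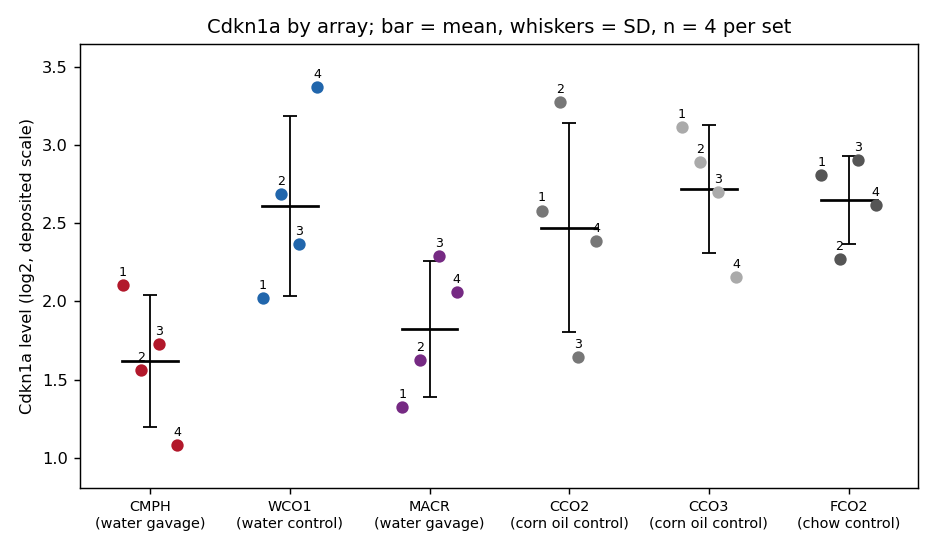
Cdkn1a level (log2, relative to the array centre) on each array of the CMPH, WCO1 and MACR groups and of the other control sets of the batch; each numbered point is 1 animal, bars are group means and whiskers SD (n = 4). The CMPH arrays run from 1.08 to 2.10 and the WCO1 arrays from 2.02 to 3.37.

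The promoter of Cdkn1a is shown because the gene is the marker of this experiment and a classical p53 target. The RefSeq promoter table (build GRCm38.p6) covers 250 bases before to 50 after each gene's start. The capitals mark a match to CATG, any 6 bases, and CATG again, the paired cores of a p53 site, searched on both strands, which begins 48 bases before the start at chr17:29090729-29091028 on the plus strand.
Cdkn1a: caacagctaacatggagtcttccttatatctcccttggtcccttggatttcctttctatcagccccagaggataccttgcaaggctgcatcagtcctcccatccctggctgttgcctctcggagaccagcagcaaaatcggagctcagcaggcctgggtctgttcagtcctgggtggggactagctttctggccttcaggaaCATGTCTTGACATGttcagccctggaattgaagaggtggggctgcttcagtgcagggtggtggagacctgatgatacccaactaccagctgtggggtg
That motif occurs in 0.712% of 32851 promoter windows and in 1 of 29 p53-list genes with a window, Cdkn1a itself. The window at the gene's other listed start, chr17:29093519-29093818, holds no match. The match is a description of these letters, not a bound site.

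Over the 34 exposed groups of the series, each against its own controls, the Cdkn1a effect of CMPH was the lowest. The 34 effects ran from -0.99 to 0.77 with a median of 0.04, and 15 were below 0. Next in order came MACR (-0.79, limma adjusted p = 0.0465), trichlorofluoromethane (-0.77, adjusted p = 0.091), coumarin (-0.76, adjusted p = 0.00907) and 1 dose of 1,4-dichlorobenzene (-0.67, adjusted p = 0.0371). The intervals of 10 other groups overlapped that of CMPH, so the order among the lowest groups is not resolved. All of the 4 neighbours were gavage groups too, but the remaining gavage groups ran from -0.17 for dibromoethane to 0.54 for benzofuran. The genes whose group effects ran most like those of Cdkn1a over the 34 groups were Slc3a2 (Pearson r 0.785), Angptl4 (0.777), Adamtsl2 (0.756), Mif4gd (0.753) and Pnp (0.751). These correlations are descriptions, over effects that share control sets.

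The other genes of lowest p were chosen by their p in this contrast, so the p and the separation of their arrays are values and not evidence. Of 12 named lower genes and 12 named higher genes, the arrays of the 2 groups did not overlap for 6 and 7 respectively. Without CMPH array 4 the 12 lower genes kept negative estimates, from -0.82 for Cdkn1a to -0.20 for Mllt11, and the 12 higher genes kept positive ones.

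Adamtsl2, a secreted glycoprotein of the extracellular matrix related to the ADAMTS proteases, had the lowest p of all. Its CMPH levels were 1.06, 0.80, 0.87 and 0.54 and its WCO1 levels 1.12, 1.47, 1.51 and 1.82. Every CMPH array lay below every WCO1 array, with a difference of -0.66 ± 0.14 (SE; limma adjusted p = 0.142). Errfi1, a feedback inhibitor of the epidermal growth factor receptor that is induced by glucocorticoids, read 3.45, 3.12, 3.43 and 2.53 in CMPH and 3.76, 4.21, 4.02 and 4.06 in WCO1. The Errfi1 arrays did not overlap either, and the difference was -0.88 ± 0.20 (SE; adjusted p = 0.188), a 1.84-fold lower level. Gpx3, the secreted glutathione peroxidase, read 4.90, 4.89, 5.02 and 4.12 in CMPH and 5.21, 5.03, 5.26 and 5.46 in WCO1. Here CMPH array 4 lay far below its 3 fellows, which sat just under the lowest WCO1 array (difference -0.51 ± 0.14, SE; -0.30 without CMPH array 4).

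The remaining lower genes had smaller or less separated differences. Slc25a29, a mitochondrial carrier of basic amino acids (-0.41 ± 0.10, SE), Adamts15, a secreted metalloprotease (-0.55 ± 0.15, SE), and Mllt11 (-0.26 ± 0.07, SE) did not overlap between the groups. Rgcc, a regulator of the cell cycle (-0.76 ± 0.21, SE), Slc10a6, a transporter of steroid sulfates (-0.67 ± 0.18, SE), and Adm, the vasodilator peptide adrenomedullin (-0.58 ± 0.16, SE), did overlap, each through at least 1 low WCO1 array. The co-chaperone Dnaja4 (-0.53 ± 0.15, SE) overlapped as well. Snorc, a small proteoglycan of cartilage (-0.26 ± 0.08, SE), had 1 high array, WCO1 array 1, which read 0.57 while the 7 other arrays lay between -0.43 and -0.15.

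On the higher side stood 2 carboxylesterases, the aryl hydrocarbon receptor and clock genes. Ces1f, which hydrolyses esters of drugs and lipids, read 0.95, 0.86, 0.91 and 0.60 in CMPH and 0.45, 0.11, 0.36 and 0.19 in WCO1. Its relative Ces1g read 0.01, 0.07, 0.18 and -0.19 in CMPH and -0.64, -0.50, -0.51 and -0.46 in WCO1. Neither gene overlapped between the groups, and the differences were 0.55 ± 0.16 (SE) for Ces1f and 0.54 ± 0.17 (SE) for Ces1g, both at a limma adjusted p of 0.605. Ahr, the receptor that switches on Cyp1 genes, read 2.44, 2.51, 2.55 and 2.81 in CMPH and 2.24, 2.11, 1.86 and 1.18 in WCO1, a difference of 0.73 ± 0.21 (SE). The Ahr groups did not overlap either, although WCO1 array 4 alone lay far below the rest. Its target Cyp1a1 differed by -0.37 ± 0.24 (SE) and Cyp1b1 by 0.16 ± 0.12 (SE), with overlapping arrays for both.

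Sptssb, a small subunit of the enzyme that starts sphingolipid synthesis, differed by 0.42 ± 0.11 (SE; limma adjusted p = 0.531). Its CMPH levels were -0.10, 0.04, -0.03 and -0.20 and its WCO1 levels -0.56, -0.19, -0.59 and -0.63, so that WCO1 array 2 reached the CMPH range. The calcium pump Atp2b2 differed by 0.28 ± 0.08 (SE) and Fcer2a, the low-affinity IgE receptor of B cells, by 0.34 ± 0.12 (SE), again with 1 WCO1 array inside the CMPH range. Eomes, a transcription factor of cytotoxic lymphocytes, Tceanc, Psg23 and Nat8f3 differed by 0.18 to 0.23, and all 4 read below 0 on all 8 arrays.

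**Figure D2:**
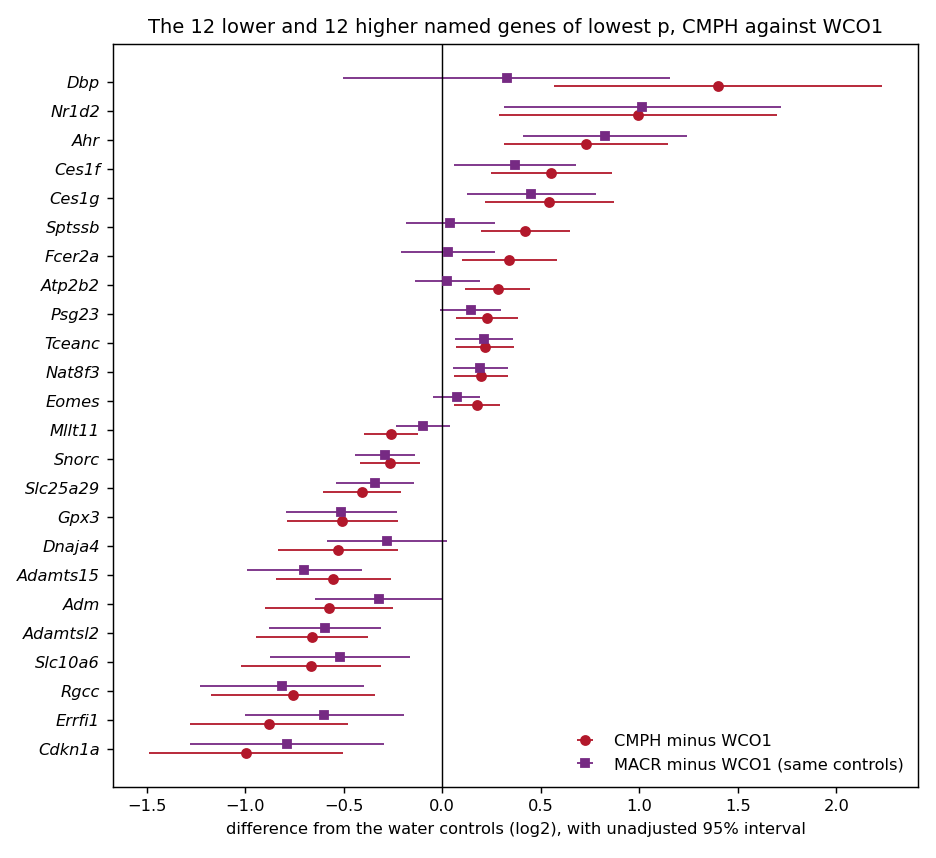
Difference between CMPH and WCO1 (log2) for the 12 lower and 12 higher named genes of lowest p, with unadjusted 95% intervals from the limma model; circles are CMPH and squares MACR, both against the same WCO1 arrays. For CMPH, Cdkn1a has the largest lower estimate (-0.99) and Dbp the largest higher one (1.40), and no gene passed the adjusted threshold against WCO1.

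Genes induced by glucocorticoids were lower as a group in value. Of 19 tested, 0 were called, 17 lay below 0, and 11 were lower and 1 higher at an unadjusted p under 0.05. Over all genes 5.92% were lower and 1.21% higher at that level. The list's median was -0.47, beside -0.03 over all genes. Dusp1, a phosphatase that switches off MAP kinases, read 4.05, 4.03, 3.80 and 3.33 in CMPH and 4.15, 4.45, 5.06 and 4.76 in WCO1, without overlap (-0.80 ± 0.24, SE). Ddit4, an inhibitor of mTOR signalling, read 0.82, 1.06, 0.97 and 0.69 against 1.45, 1.86, 1.49 and 1.54, also without overlap (-0.70 ± 0.24, SE). The kinase Sgk1 (-0.53 ± 0.18, SE) did not overlap either. Tsc22d3, the leucine zipper protein GILZ, differed by -0.88 ± 0.28 (SE), with 2.80, 2.38, 2.68 and 1.64 in CMPH and 2.56, 3.50, 3.13 and 3.84 in WCO1, so WCO1 array 1 lay within the CMPH range.

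Fkbp5, a co-chaperone that dampens the glucocorticoid receptor, showed how uneven the controls were. WCO1 arrays 2 and 4 read 1.74 and 2.16 while WCO1 arrays 1 and 3 read 0.76 and 0.24, and the CMPH arrays lay between 0.22 and 1.00. Zbtb16 split the controls in the same way (2.29 on arrays 2 and 4, and 0.57 and 0.56 on arrays 1 and 3) and differed by -0.20 ± 0.48 (SE). Klf9 (0.14 ± 0.22, SE) and the receptor gene itself, Nr3c1, were the 2 members above 0. For Nr3c1 the CMPH levels of 2.32, 2.22, 2.26 and 2.71 all lay above the WCO1 levels of 1.99, 2.18, 1.88 and 1.51 (0.49 ± 0.21, SE). The list median was -0.35 without CMPH array 4, with 5 genes lower at an unadjusted p under 0.05, and -0.24 without either array numbered 4. Without WCO1 array 2 or 4 alone, 6 or 7 genes were lower at that level. The list's mean level was the highest on WCO1 arrays 2 and 4 and the lowest on CMPH array 4.

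Heat shock genes were lower in CMPH by their estimates, with the WCO1 arrays split into 2 high and 2 low for Hspa1b and Hspa1a. Of 16 tested, 0 were called and 9 (56.25%, beside 5.92% over all genes) were lower at an unadjusted p under 0.05, with a median of -0.45. Hspa1b, a stress-inducible chaperone, read 1.70, 0.56, 0.73 and 0.24 in CMPH and 0.91, 0.83, 3.56 and 4.19 in WCO1. Hspa1a read 0.55, 0.12, 0.16 and -0.16 against 0.18, 0.15, 2.38 and 3.09. For both genes WCO1 arrays 3 and 4 stood far above the other 6 arrays, and WCO1 arrays 1 and 2 lay within the CMPH range. Among the 12 gavage controls of the batch, WCO1 included, high levels were the usual ones. The median of the 12 was 3.58 for Hspa1b and 2.11 for Hspa1a, and 9 and 8 of them lay above every CMPH array. WCO1 array 2 was the lowest of the 12 for both genes. The differences were -1.57 ± 0.63 (SE) for Hspa1b and -1.28 ± 0.60 (SE) for Hspa1a. The co-chaperone Dnajb1 followed the same arrays, with 3.57 and 3.52 on WCO1 arrays 3 and 4 and 1.50 to 2.27 on the other 6 (-0.88 ± 0.38, SE). Without WCO1 arrays 3 and 4, which leaves the 2 controls of low Hspa1b, the list median was -0.19. In that fit 0 of its genes had an unadjusted p under 0.05. Without WCO1 array 4 alone the median was -0.31 and the count again 0. Without CMPH array 4 the median was -0.28 and 3 genes were lower at that level.

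The Hspa1b and Hspa1a promoters are printed to show how alike these 2 windows are. Their probe sets may share signal, which the promoter windows cannot show and which was not tested. Capitals mark GAANNTTC, a pair of heat shock element units, searched on both strands, which begins 104 bases before each start. The windows (RefSeq, GRCm38.p6) are chr17:34959189-34959488 for Hspa1b and chr17:34972107-34972406 for Hspa1a, both on the minus strand.
Hspa1b: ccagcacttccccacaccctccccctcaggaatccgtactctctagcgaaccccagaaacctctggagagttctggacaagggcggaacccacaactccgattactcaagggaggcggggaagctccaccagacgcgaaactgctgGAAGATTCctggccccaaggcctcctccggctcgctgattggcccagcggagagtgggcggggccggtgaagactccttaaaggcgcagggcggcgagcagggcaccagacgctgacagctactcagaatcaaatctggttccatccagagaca
Hspa1a: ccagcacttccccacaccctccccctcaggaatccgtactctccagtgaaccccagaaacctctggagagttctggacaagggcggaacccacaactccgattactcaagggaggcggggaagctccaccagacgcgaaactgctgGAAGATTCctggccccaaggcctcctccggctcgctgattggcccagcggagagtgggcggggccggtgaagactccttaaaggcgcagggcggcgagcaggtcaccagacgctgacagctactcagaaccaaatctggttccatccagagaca
The 2 windows are identical at 296 of 300 bases. GAANNTTC occurs in 7.86% of all promoter windows and in 10 of 13 heat shock genes with a window.

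Endoplasmic reticulum (ER) stress genes showed smaller differences of the same sign. Of 25 tested, 0 were called, 23 lay below 0, and 13 were lower at an unadjusted p under 0.05, with a median of -0.19. The 13 were 52% of the list, beside 5.92% over all genes. Calr, the calcium-binding chaperone calreticulin, differed by -0.45 ± 0.13 (SE), and the transcription factor Atf4 by -0.41 ± 0.14 (SE). Asns, the asparagine synthetase induced by Atf4, read 1.53, 1.53, 1.54 and 1.00 in CMPH and 1.78, 1.74, 1.61 and 2.09 in WCO1, without overlap (-0.40 ± 0.13, SE). Hspa5, the main chaperone of the ER, differed by -0.10 ± 0.20 (SE). Without CMPH array 4 the list had 3 genes lower at an unadjusted p under 0.05 and a median of -0.16, and without WCO1 array 4 it had 2. With the spread estimated from the CMPH and WCO1 arrays alone it had 5, and from the batch alone 12. Of 20 immediate early genes, 5 were lower at that level, among them Klf2, a transcription factor of endothelium that responds to blood flow (-0.70 ± 0.25, SE), whereas Fos differed by -0.13 ± 0.25 (SE). That count of 5 was 2 without CMPH array 4 or without WCO1 array 3 or 4, and 10 without WCO1 array 2.

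**Figure D3:**
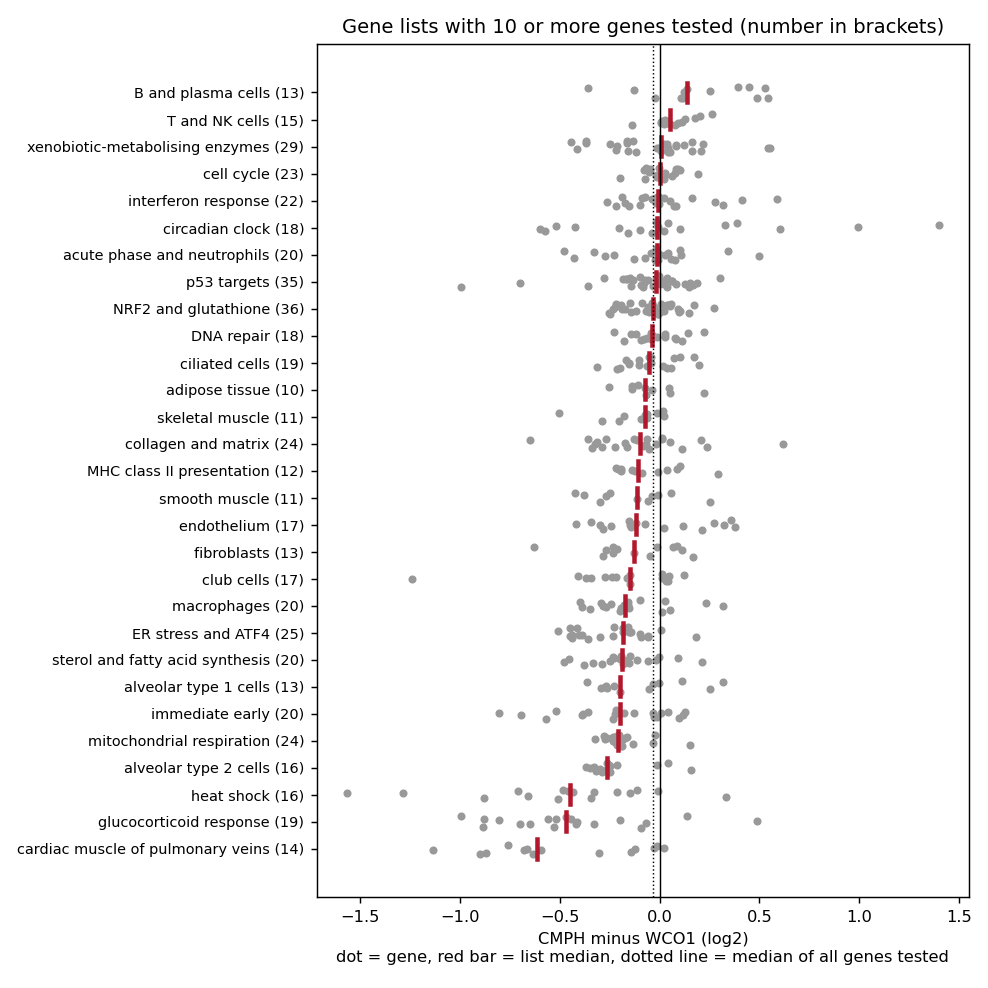
Difference between CMPH and WCO1 (log2) for every tested gene of each list of 10 or more genes, with the list median as a red bar and the median of all 13524 genes as a dotted line. The cardiac muscle (-0.61), glucocorticoid (-0.47) and heat shock (-0.45) medians lie farthest below the median of all genes (-0.03).

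Clock genes differed in opposite directions. Of 18 tested, 0 were called, 5 were higher and 4 lower at an unadjusted p under 0.05, and the median was -0.01. These were 27.8% and 22.2% of the list, beside 1.21% higher and 5.92% lower over all genes. Dbp, a transcription factor that carries the clock's output, read 1.03, 1.57, 1.86 and 1.02 in CMPH and 0.66, 0.71, -0.72 and -0.77 in WCO1. All CMPH arrays lay above all WCO1 arrays, but the WCO1 arrays fell into 2 pairs more than 1 unit apart. The difference was 1.40 ± 0.42 (SE; limma adjusted p = 0.605), a 2.64-fold higher level, and it was 0.68 against WCO1 arrays 1 and 2 alone. The repressors Nr1d1 (0.60 ± 0.28, SE) and Nr1d2 (0.99 ± 0.36, SE) were also lowest on WCO1 arrays 3 and 4.

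Arntl, the activator BMAL1 that these repressors act on, was lower in CMPH by estimate. It read 0.59, 0.08, 0.01 and -0.02 in CMPH and 0.64, 0.23, 1.04 and 1.05 in WCO1 (-0.57 ± 0.18, SE). Its partner Npas2 (-0.42 ± 0.15, SE) and the repressor Nfil3 (-0.60 ± 0.19, SE) were likewise highest on WCO1 arrays 3 and 4. Per2 differed by -0.01 ± 0.13 (SE) and Tef by -0.02 ± 0.17 (SE). Without WCO1 arrays 3 and 4, 0 clock genes were higher and 1 was lower at an unadjusted p under 0.05. The labels give no time of collection.

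Per1 belongs both to the clock and to the glucocorticoid targets, and its promoter is shown for that reason. Capitals mark CACGTG, the E-box on which the clock activators act, which begins 166 bases before the start at chr11:69098699-69098998 on the plus strand (RefSeq, GRCm38.p6).
Per1: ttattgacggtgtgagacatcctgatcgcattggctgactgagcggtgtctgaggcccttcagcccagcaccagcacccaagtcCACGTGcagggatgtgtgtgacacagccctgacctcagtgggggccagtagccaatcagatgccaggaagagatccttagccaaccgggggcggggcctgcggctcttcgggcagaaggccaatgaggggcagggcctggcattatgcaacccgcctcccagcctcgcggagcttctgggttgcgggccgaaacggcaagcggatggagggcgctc
CACGTG, which reads the same on both strands, occurs in 7.15% of all windows and in 5 of 16 clock genes with a window. The windows of Dbp and Nr1d1, and the window at the other listed Per1 start (chr11:69099902-69100201), hold no match. Per1 read 1.00, 0.65, 1.07 and 0.40 in CMPH and 0.83, 1.34, 1.48 and 1.54 in WCO1 (-0.52 ± 0.25, SE), so that WCO1 array 1 lay within the CMPH range.

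**Figure D4:**
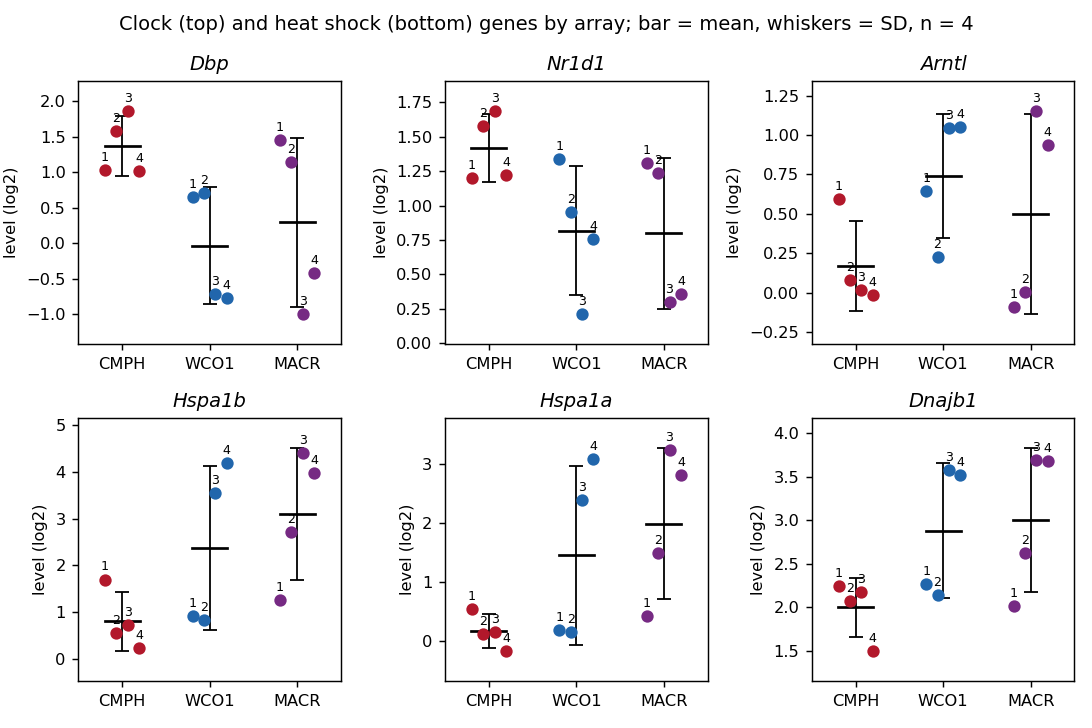
Levels (log2, relative to the array centre) of clock and heat shock genes on each CMPH, WCO1 and MACR array; each numbered point is 1 animal, bars are means and whiskers SD. The WCO1 arrays 3 and 4 have low Dbp (-0.72 and -0.77) and high Hspa1b (3.56 and 4.19). The 4 CMPH arrays lie above all WCO1 arrays for Dbp, and WCO1 arrays 1 and 2 lie within the CMPH range for Hspa1b.

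The MACR group, which was dosed in the same vehicle, divided in the same way for Dbp, but less cleanly for Hspa1b. MACR arrays 1 and 2 had Dbp levels of 1.45 and 1.15 and Hspa1b levels of 1.26 and 2.72. MACR arrays 3 and 4 had Dbp levels of -0.99 and -0.42 and Hspa1b levels of 4.41 and 3.99. The 4 CMPH animals all fell on the side with high Dbp. For Hspa1b all 4 read below MACR array 2, which lay between MACR array 1 and MACR arrays 3 and 4.

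Genes that mark DNA damage were not higher in CMPH at the threshold or at an unadjusted p under 0.05. Of 35 p53 targets tested, 0 were called and 0 were higher, and 4 lower, at an unadjusted p under 0.05, with a median of -0.02. The 4 were 11.4% of the list, beside 5.92% lower and 1.21% higher over all genes. The lower genes were Cdkn1a, Ddit4, Plk3 and Tigar. Ccng1, a cyclin and strong p53 target, read 1.47, 1.36, 1.43 and 1.81 in CMPH and 1.13, 1.72, 1.09 and 0.92 in WCO1 (0.30 ± 0.20, SE; 95% interval -0.10 to 0.71). Mdm2, the ligase that p53 induces against itself, differed by 0.15 ± 0.12 (SE; 95% interval -0.08 to 0.38). Phlda3 differed by -0.19 ± 0.15 (SE). Among 18 DNA repair genes 1 was lower at that level, and among 23 cell cycle genes none was (median 0.00; Mki67 0.08 ± 0.17, SE). With 4 animals a group, effects inside these unadjusted intervals remain compatible with the data. The intervals are not a limit of detection, since Cdkn1a at -0.99 was not called either.

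Defence genes had list medians close to 0. Of 36 genes of the NRF2 and glutathione list, 1 was higher and 1 lower at an unadjusted p under 0.05 (0 called), with a median of -0.04. Each was 2.78% of the list, beside 1.21% higher and 5.92% lower over all genes. Nqo1, a quinone reductase and the usual readout of NRF2, read 0.07, 0.10, 0.01 and -0.06 in CMPH and -0.24, -0.43, -0.22 and -0.07 in WCO1. Its groups did not overlap, by a narrow margin (0.27 ± 0.12, SE; adjusted p = 0.639). The lower member was the ferritin chain Fth1 (-0.25 ± 0.10, SE). Of 29 xenobiotic-metabolising enzymes, 2 (6.9%) were higher, the carboxylesterases already described, and 4 (13.8%) lower at that level, with a median of 0.01. Without CMPH array 4 2 were higher and 0 lower at that level. With arrays quantile-normalised 6 were higher and 3 lower, beside 719 and 1024 of all 13524 genes. Cyp2f2, the club cell enzyme that activates naphthalene, differed by -0.22 ± 0.10 (SE), Cyp2e1 by 0.05 ± 0.44 (SE) and Ces1d by -0.01 ± 0.12 (SE).

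Markers of the lung's own cells were mostly lower in value, and those differences moved with CMPH array 4. In bulk tissue, fewer cells of a type and less RNA per cell cannot be told apart. Of 16 alveolar type 2 genes, 10 (62.5%, beside 5.92% over all genes) were lower at an unadjusted p under 0.05 and 0 were called, with a median of -0.26. Without CMPH array 4 the median was -0.12 and 0 were lower at that level, and with arrays quantile-normalised the median was -0.07. Without WCO1 array 1 or 3, 1 or 4 genes were lower at that level. With the spread estimated from the CMPH and WCO1 arrays alone 2 were, and from the batch alone 1. Sftpc, surfactant protein C, read 6.70, 6.92, 6.79 and 6.36 in CMPH and 7.01, 6.78, 6.93 and 6.89 in WCO1, with only CMPH array 4 well below the rest. The same array was also low for the 24 nuclear genes of mitochondrial respiration, whose median of -0.21 was -0.05 without it. The list levels for respiration were 0.09, 0.05, 0.06 and -0.63 on the CMPH arrays relative to the mean of the other 7.

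**Figure D5:**
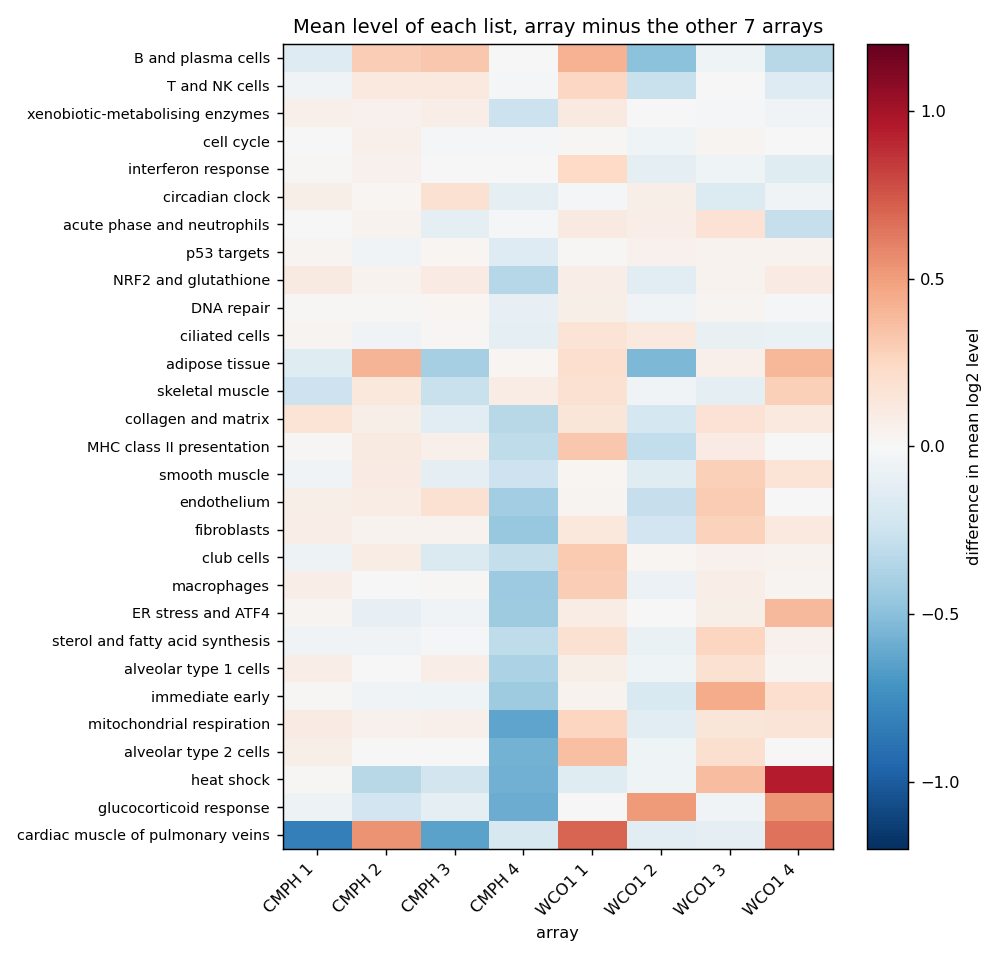
Mean level of each gene list of 10 or more genes on each of the 8 arrays relative to the mean of the other 7 (log2), as a heat map. CMPH array 4 is low for most lists of lung cells (alveolar type 2 cells -0.57, respiration -0.63), and the heat shock list is high on WCO1 arrays 3 (0.37) and 4 (0.94).

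Transcripts of large airways and of the cardiac muscle that sheathes pulmonary veins varied widely between arrays. Scgb3a1, a secretoglobin of upper airways, read 3.23, 5.10, 1.06 and 5.26 in CMPH and 5.40, 3.99, 5.06 and 5.16 in WCO1. Bpifa1, a secreted airway defence protein, read 2.66, 4.77, 0.23 and 5.38 against 4.43, 3.19, 4.69 and 4.98. CMPH arrays 1 and 3 were the low ones for both, and CMPH array 4 was as high as the controls. Myl7, the atrial myosin light chain, read 0.84, 3.27, 1.50 and 1.72 against 3.63, 2.29, 2.48 and 3.47. The 14 cardiac genes had the lowest median of all lists, -0.61, with 1 gene (7.14%, beside 5.92% over all genes) lower at an unadjusted p under 0.05. Without CMPH array 2 the median was -0.88 with 8 genes lower at that level, without WCO1 array 2 or 3 the count was 5 or 4, and without any 1 of the remaining 5 arrays it was 0. Their list level was -0.82 and -0.64 on CMPH arrays 1 and 3 and 0.54 on CMPH array 2.

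Lymphocyte markers lay slightly above 0. Of 15 T and NK cell genes 14 had positive estimates, with a median of 0.05. At an unadjusted p under 0.05, 1 gene was higher (6.67%, beside 1.21% over all genes). Without WCO1 array 1 the median was 0.18, and without WCO1 array 2 it was -0.00. The 13 B and plasma cell genes had a median of 0.14 (0.29 without WCO1 array 1). Cd79a, a chain of the B cell receptor, read 0.72, 1.05, 1.28 and 0.64 in CMPH and 1.28, -0.03, 0.43 and 0.05 in WCO1 (0.49 ± 0.25, SE). WCO1 array 2 was the lowest and WCO1 array 1 the highest of that list. Thymus genes such as Rag1 and Rag2 lay above the median of all values on 0 of 8 arrays.

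CMPH was next set against MACR directly, a comparison of 2 groups at different doses (250 and 50 mg/kg) that does not use the controls. The limma test called 0 of 13524 genes (percent called 0), the lowest adjusted p was 0.887, and at an unadjusted p under 0.05 230 genes were higher (1.7%) and 447 lower (3.31%) in CMPH. The 2 directions together came to 1715 without CMPH array 4 and 199 without MACR array 3, with 0 called in either fit. Cdkn1a differed by -0.21 ± 0.25 (SE; 95% interval -0.70 to 0.29), with MACR levels of 1.32, 1.62, 2.29 and 2.06. Among the named genes Sptssb (0.38 ± 0.11, SE), Atp2b2 (0.26 ± 0.08, SE) and Dbp (1.07 ± 0.42, SE; 95% interval 0.24 to 1.90) were higher in CMPH by estimate. Gpx3 differed by 0.01 (95% interval -0.28 to 0.29) and Ahr by -0.10 (95% interval -0.51 to 0.32). Estimates beyond 2-fold were seen for 6 genes, of which 4 were chaperones (Hspa1b at -2.29, Hspa1a at -1.82, Dnaja1 at -1.28, and Dnajb1), beside Bpifa1 and Dbp.

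Against the shared WCO1 controls the 2 chemicals had the following values side by side, and because the controls are the same arrays no likeness is read from them. Adamtsl2 was at -0.66 for CMPH and -0.59 for MACR (limma adjusted p = 0.142 and 0.0312). Errfi1 was at -0.88 and -0.60, Gpx3 at -0.51 and -0.51, and Ahr at 0.73 and 0.83. Ces1f was at 0.55 and 0.37, and Ces1g at 0.54 and 0.45. Sptssb was at 0.42 and 0.04. The limma calls for MACR against WCO1 ranged from 0 to 2695 genes when 1 array was left out, so the MACR p-values depend on single arrays too.

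The CMPH effect was also compared with the mean effect of the 7 other chemicals of the batch that have other controls, each taken against its own. The limma test called 0 of 13524 genes (percent called 0), with a lowest adjusted p of 0.135, again for Adamtsl2. At an unadjusted p under 0.05, 2339 genes (17.3%) were lower for CMPH and 180 (1.33%) higher, and without CMPH array 4 the 2 directions together came to 481. Cdkn1a differed by -0.93 (95% interval -1.49 to -0.38; adjusted p = 0.208) and Adamtsl2 by -0.72. Ces1f (0.09, adjusted p = 0.778) and Ces1g (-0.31, adjusted p = 0.326) did not differ from that mean at the threshold; the Ces1f interval ran from -0.26 to 0.44.

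With a larger set of controls some genes were called, and none of them was called without CMPH array 4. Against all 12 gavage controls of the batch, water and corn oil together, the limma test called 31 of 13524 genes (0.229%), of which 27 fell and 4 rose. Of the 31, 13 were among the 24 named genes. Those were chosen by p on the same CMPH and WCO1 arrays, so the overlap was largely built in and is not separate evidence. In that comparison Cdkn1a fell by 0.98 on the log2 scale (1.98-fold, adjusted p = 0.00667), Adamtsl2 by 0.68 (adjusted p = 0.00056) and Errfi1 by 0.78. The 4 that rose were Sptssb (0.45), Atp2b2 (0.31), Ces1f (0.54) and Dbp (1.46). Among list members Nfil3, Arntl, Eln, Mfap4 and Asns fell, and so did Hspa1b, by 2.06 on the log2 scale. When CMPH array 4 was left out, 0 genes were called (lowest adjusted p 0.0663; 223 higher and 314 lower at an unadjusted p under 0.05), with Cdkn1a at -0.80 and Adamtsl2 at -0.59. When the arrays were instead quantile-normalised, which equalises their spread, 483 genes were called.

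The spread between control sets was set beside that of animals within a set as a ratio of variances (F). The ratio had a median over genes of 0.383 for WCO1, CCO2 and CCO3. It was 0.619 over all 14 control sets of the series and 4.16 over the 34 exposed groups. A low ratio cannot show that control sets are alike, since the normalization behind the values is not given, and likeness was not tested. WCO1 against the 2 corn oil sets gave 0 limma calls of 13524 (percent called 0; 144 higher, 1.06%, and 196 lower, 1.45%, at an unadjusted p under 0.05). Cdkn1a differed there by 0.02 and Adamtsl2 by -0.04. All 12 gavage control arrays lay above every CMPH array for Adamtsl2 and Mllt11, 10 did so for Cdkn1a, and all 12 lay below every CMPH array for Ces1f and Ces1g. The 12 include the WCO1 arrays on which these genes were chosen, so part of this separation was built in. Against WCO1 alone, every CMPH array was below for 1.4% of all genes and above for 1.58%. Those shares are no yardstick for separation from 12 arrays, for which the share over all genes was not counted. For Hspa1b, 9 of the 12 lay above every CMPH array, and for Dbp 11 lay below.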

How the data were processed

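Lung RNA was hybridised to Affymetrix mouse arrays, after RNAlater storage, Trizol extraction and RNeasy purification, per the labels' protocols. As deposited by the authors, the values of 45101 probe sets are logarithms, treated as log2, that centre near 0 on each array; the base and normalization are not given in the sources used here. Probe sets with 1 gene symbol (34958) were reduced to the one of highest mean per gene, and 13524 genes above the median of all values (-0.39) on at least 3 arrays were tested.

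A group-means model over all arrays was fitted with limma 3.58.1 in R 4.3.3, two-sided, with Benjamini-Hochberg adjustment over all genes, and was tested on simulated data. Named genes were Cdkn1a and, as no gene was called, the 12 genes of lowest p in each direction, unnamed transcripts passed over. Other genes in the text were picked from 36 gene lists after their values were seen. The members and lists were chosen with earlier results of these data known. The animals are individual mice, so p-values measure the spread between animals. Alternatives covered normalization, filter, probe set rule, arrays fitted, controls used and each array left out.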

Additional observations from a re-analysis of the deposited data

Results flagged for a closer look

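In each of 56 groups of 4 arrays the lowest and highest array were compared with the rest, and 5 held an array far from the others; chance marks about 1 in 20 groups. Gpx3, the secreted glutathione peroxidase, read 4.12 on CMPH array 4 while the other CMPH arrays lay between 4.89 and 5.02. CMPH array 4 also had a mean correlation with its own group of 0.970, against 0.986 to 0.987 for the others. Snorc read 0.57 on WCO1 array 1, against -0.31 to -0.18 on the other controls. Sptssb read -0.19 on WCO1 array 2, against -0.63 to -0.56. Fcer2a read -0.00248 on WCO1 array 1, against -0.53 to -0.48. The Gpx3 and Snorc arrays lie on the side that widens the CMPH difference, and the Sptssb and Fcer2a arrays on the side that narrows it.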

How the results depend on the processing

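No paired analysis was possible because the array numbers are names given in accession order and the labels tie no CMPH animal to a WCO1 animal. For CMPH against WCO1, the count of called genes moved from 0 to 1 with quantile normalization, 31 against the 12 gavage controls, 126 against all 16 controls of the batch, and, in alternatives added after seeing the data, 2 without WCO1 arrays 3 and 4 and 483 against the gavage controls after quantile normalization. Leaving out 1 array gave 0 to 1 called genes (1 without WCO1 array 1), and 212 (without CMPH array 4) to 2510 (without WCO1 array 2) at an unadjusted p under 0.05. For the difference from 7 chemicals it gave 0 to 2. For WCO1 against corn oil, quantile normalization gave 10, median centring 1 and the mean of all probe sets 1. The cause of these shifts was not tested. CMPH against MACR kept 0 calls in every setting run. None of 496 values of the 24 named genes over 21 settings reversed, and 35 newly passed the threshold. The genes were chosen by p on these same arrays, so the lack of reversals was largely fixed in advance. Most of the 35 came from settings against the 12 gavage controls. Array weights could not be fitted. With 4 animals a group, the median SE of a log2 difference was 0.103.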
